A study of Mus musculus with 16 samples.

Results

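The response of each gene to TNFα was compared between mouse embryo fibroblasts (MEFs) that lack SIMPL and MEFs of littermate controls, as the change with TNFα in SIMPL-/- MEFs minus the change with TNFα in littermate MEFs. All 16 arrays and all 19938 genes measured entered this comparison, and 107 genes had a difference between the responses at an adjusted p under 0.05. Each genotype was measured untreated and treated with TNFα, on 4 arrays per group. All cultures are described as proliferating fibroblasts of the mixed strain C57Bl/6 x 129Sv, and the labels name no other allele or agent. Treated cells received recombinant human TNFα at 10 ng/ml, for which the labels give 45 min and the methods of the study 1 h. By those methods the MEFs of each genotype came from 4 separate derivations, each from 1 embryo, and no label ties an untreated array to a treated one. The age of the embryos is not given in the sources used here. The p-values measure the spread between these arrays.

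SIMPL, also called IRAK1BP1, is a protein of TNF receptor signalling that works with the NF-κB subunit p65. TNFα binding to its receptor activates the IκB kinases, the inhibitors of NF-κB are degraded, and NF-κB enters the nucleus, where it raises genes for chemokines, adhesion molecules, cytokines and its own inhibitors. Genes that respond this early are mostly direct targets of factors already present in the cell, and they include the immediate early genes of the MAP kinase pathways. The comparison asks which of these genes respond differently when SIMPL is missing.

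Irak1bp1, which encodes SIMPL, was checked first. Its log2 signal was 8.19, 8.21, 7.85 and 8.12 on the untreated and 7.65, 7.98, 8.03 and 7.98 on the treated littermate arrays. In SIMPL-/- MEFs it was 5.32, 5.16, 5.62 and 5.35 without and 5.26, 5.53, 5.08 and 5.6 with TNFα, below every littermate array. All levels are log2 values of RMA, a method that brings arrays to a common scale, so that 1 unit stands for a 2-fold change of signal. The lowest Pearson's r between arrays of 1 group was 0.995 across genes, and the median SE of the difference between the responses was 0.106. The median of that difference over all genes was −0.03. Fibroblast markers were high in every group, with a mean level over 12 genes of 11.7 to 12.1 on all arrays. Myeloid markers were also present, and the mean level over 32 of them ranged from 9.07 to 9.57 over the littermate arrays and from 7.17 to 7.30 over the SIMPL-/- arrays. For 8 epithelial markers these means were higher without SIMPL, at 6.46 to 6.80 and 7.38 to 7.71. Endothelial markers had means of 6.08 to 6.40 and 6.42 to 6.48, and neural markers 7.05 to 7.19 and 7.23 to 7.38. The means of lymphoid and mast cell markers overlapped. In cultures measured in bulk, fewer cells of a type and less RNA per cell cannot be told apart.

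The difference was negative for 88 genes (0.441% of those tested) and positive for 19 (0.0953%). After a further quantile normalization of the arrays the counts were 97 and 39. At an unadjusted p under 0.05, 1646 genes had a negative and 931 a positive difference. A negative difference can come from a smaller rise or from a larger fall without SIMPL, and a positive one from a larger rise or a smaller fall, so the genes were divided by which response had itself passed the test. The class names follow these calls, and a response that did not pass could have an estimate of the opposite sign. A smaller rise was called for 78 genes, which rose in littermate MEFs and rose less, or not detectably, in SIMPL-/- MEFs. A larger fall was called for 9 genes, which fell in SIMPL-/- MEFs and fell less, or not detectably, in littermate MEFs. A larger rise was called for 6 genes and a smaller fall for 10, by the same rule. Of the rest, Zcchc10 and Flcn fell in littermate and rose in SIMPL-/- MEFs, and for Tspan11 (negative) and Stam (positive) neither response passed. Of all genes tested, TNFα raised 538 (2.7%) and lowered 488 (2.45%) in littermate MEFs, and it raised 345 (1.73%) and lowered 278 (1.39%) in SIMPL-/- MEFs. Nearest the threshold lay Hes1 and Cx3cl1 inside it (adjusted p = 0.047 each) and Tagap outside it (adjusted p = 0.0551), with differences of 0.42, −0.35 and −0.61. Without array 3 of the treated SIMPL-/- group 184 genes were called, 103 of the 107 among them with the same sign, and without array 2 of that group 66 were called. The positive count was 5 without treated SIMPL-/- array 2, 8 without any 1 of untreated littermate array 1, untreated SIMPL-/- array 4 and treated SIMPL-/- array 4, 9 without any 1 of untreated littermate array 2, untreated littermate array 4 and untreated SIMPL-/- array 1, 10 without untreated SIMPL-/- array 3, 12 without treated littermate array 1 and 54 without treated SIMPL-/- array 3.

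**Figure D1:**
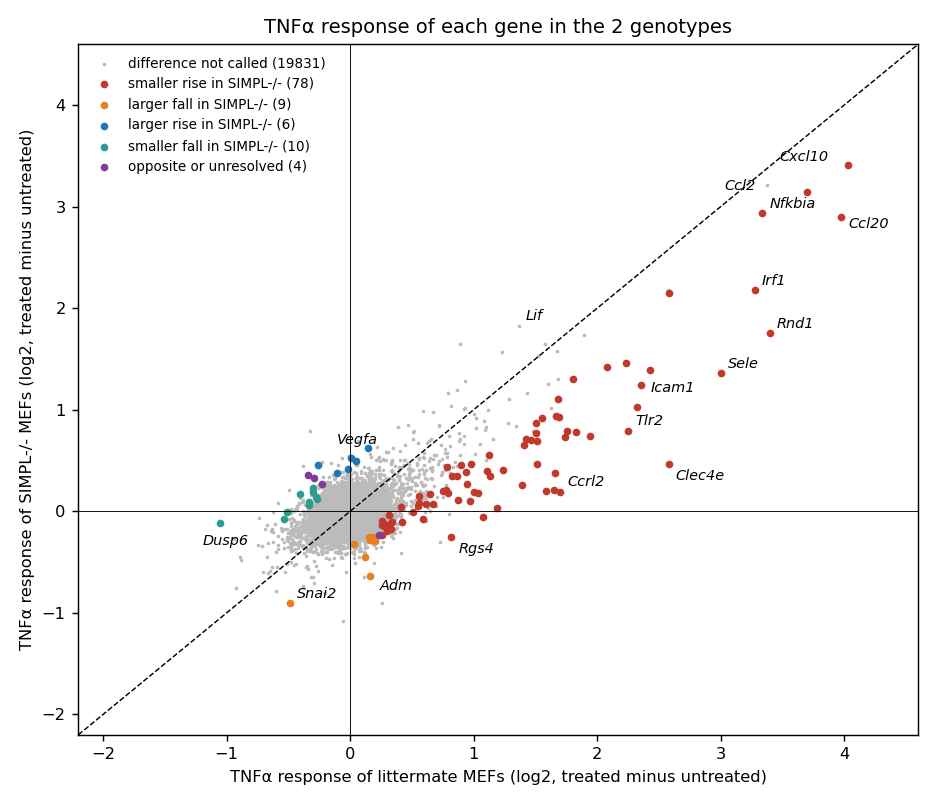
TNFα response of each gene in littermate MEFs (horizontal axis, log2, treated minus untreated) and in SIMPL-/- MEFs (vertical axis, same scale), with the dashed line at equal responses. Each point is 1 of 19938 genes, coloured by class, and the 78 smaller rises lie below the line on the right, out to a littermate response of 4.03 for Cxcl10, while Dusp6 has the lowest littermate response among genes with a positive difference, at −1.05.

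The 78 genes with a smaller rise had a median log2 response of 1.13 in littermate and 0.36 in SIMPL-/- MEFs, and the median share of the littermate response that was left without SIMPL was 30.8% on the log2 scale. They were chosen by this contrast, so these medians describe the class and test nothing. The rise in SIMPL-/- MEFs passed the test for 41 of them and not for 37, and in 16 genes its estimate was below 0. The difference exceeded 1 on the log2 scale for 21 genes and the log2 of 1.5 for 45. The call held without any 1 of the 16 arrays for 52 of the 78.

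Clec4e, a receptor for glycolipids of mycobacteria and for products of dead cells, had the largest difference of all genes called, −2.11 (SE 0.24, adjusted p = 0.000102). Its log2 signal in littermate MEFs was 4.93, 4.99, 5.17 and 5.66 before and 8.01, 7.86, 7.92 and 7.26 after TNFα. In SIMPL-/- MEFs it was 4.32, 4.55, 4.68 and 4.97 before and 5.13, 4.88, 4.99 and 5.38 after. Every treated littermate array thus stood above every other array, and the SIMPL-/- groups overlapped. Tlr2, the receptor for bacterial lipoproteins, was at 10.34, 9.80, 10.03 and 9.77 on treated littermate and at 8.03, 8.03, 8.16 and 7.96 on treated SIMPL-/- arrays. The SIMPL-/- arrays of Tlr2 lay below their littermate counterparts in both conditions, since the untreated arrays were at 7.09 to 7.44 and 7.64 to 7.85.

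Of 22 measured pattern recognition receptors, 4 had a smaller rise, Cd14 and Ptafr being the others, and the median difference of the list was −0.22. Of all genes 0.441% were called negative, the share to set beside the counts of this and later lists. All lists were chosen with earlier results of these data known, so such counts are descriptions. Cd14, the coreceptor for lipopolysaccharide, was at 8.50, 8.37, 8.39 and 8.28 on treated littermate and 6.43, 6.52, 6.24 and 6.51 on treated SIMPL-/- arrays. It is also the 1 called gene among the 32 myeloid markers. Of those markers 31 were lower in untreated SIMPL-/- MEFs, where 17.6% of all genes were, and 2 rose with TNFα in littermate MEFs. Untreated, the 4 called receptors Cd14, Ptafr, Clec4e and Tlr2 were themselves lower without SIMPL, by log2 differences of −1.35, −0.92, −0.56 and −0.49, as were 16 of the 22 receptors in all. The part of the lower myeloid level in these and the other smaller rises was not tested.

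Of 11 measured adhesion molecules, Sele, Icam1 and Vcam1 had a smaller rise, and all of them encode ligands for leukocytes. Sele, which encodes E-selectin, was at 9.0, 9.34, 9.22 and 9.18 on treated littermate and 7.92, 7.89, 8.09 and 8.17 on treated SIMPL-/- arrays. Untreated, it was higher without SIMPL, at 6.51 to 6.88 against 6.09 to 6.36. Icam1 was at 10.85, 10.60, 10.52 and 10.58 with TNFα in littermate and 9.30, 9.34, 9.53 and 9.23 in SIMPL-/- MEFs, and its untreated arrays overlapped, at 8.23 to 8.36 and 8.02 to 8.23. Vcam1 was at 11.48 to 11.67 and 10.91 to 11.06 with TNFα and overlapped without it. Their differences were −1.64, −1.11 and −0.63 (adjusted p = 1.59e-06, 3.19e-05 and 0.000226), the median of the list was −0.10, and each of these calls held without any 1 array. Over the whole list 4 genes rose in littermate and 6 in SIMPL-/- MEFs, with median responses of 0.13 and 0.31, where 2.7% and 1.73% of all genes rose.

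Rnd1, Rasgef1b and Gm6377 also had differences beyond −1. Rnd1, a small GTPase that loosens the actin skeleton, was at 6.03, 6.45, 5.82 and 5.82 before and 9.21, 9.71, 9.45 and 9.34 after TNFα in littermate MEFs. In SIMPL-/- MEFs it started higher, at 7.26, 7.28, 7.26 and 7.09, and ended lower, at 8.92, 8.81, 9.20 and 8.99. The rise was therefore 3.40 against 1.75, a difference of −1.64 (SE 0.18, adjusted p = 6.11e-05). Rasgef1b, an exchange factor for small GTPases, was at 8.53, 8.70, 8.69 and 7.87 on treated littermate and 6.05, 6.27, 6.23 and 6.33 on treated SIMPL-/- arrays, with a difference of −1.20 (SE 0.20, adjusted p = 0.00529). Unlike Rnd1, it was lower without SIMPL before TNFα too, at 5.24 to 5.66 against 6.35 to 6.66. Gm6377, a predicted gene, had a difference of −1.14 (SE 0.20, adjusted p = 0.0115) at a low signal of 3.88 to 5.70 over all arrays.

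Of 10 measured regulators of G protein signalling, Rgs4 and Rgs16 had a smaller rise, and both were higher in SIMPL-/- MEFs with and without TNFα. Rgs4 was at 6.40, 6.56, 6.92 and 6.48 before and 7.34, 7.46, 7.46 and 7.37 after TNFα in littermate MEFs. Without SIMPL it was at 8.44, 8.20, 8.27 and 8.30 before and 7.93, 7.97, 8.15 and 8.15 after. The treated arrays lay below all untreated ones there, although that response of −0.25 did not pass the test (adjusted p = 0.163), and the difference between the responses was −1.07 (SE 0.13, adjusted p = 0.000151). Rgs16 rose by 1.69 and 1.11, a difference of −0.58 (SE 0.09, adjusted p = 0.00209). On the linear scale of signal its gain was larger in SIMPL-/- MEFs, without a call (adjusted p = 0.489). Rgs2, another member, had a difference of 0.67 that was not called (adjusted p = 0.0587), with responses of −0.94 and −0.27.

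**Figure D2:**
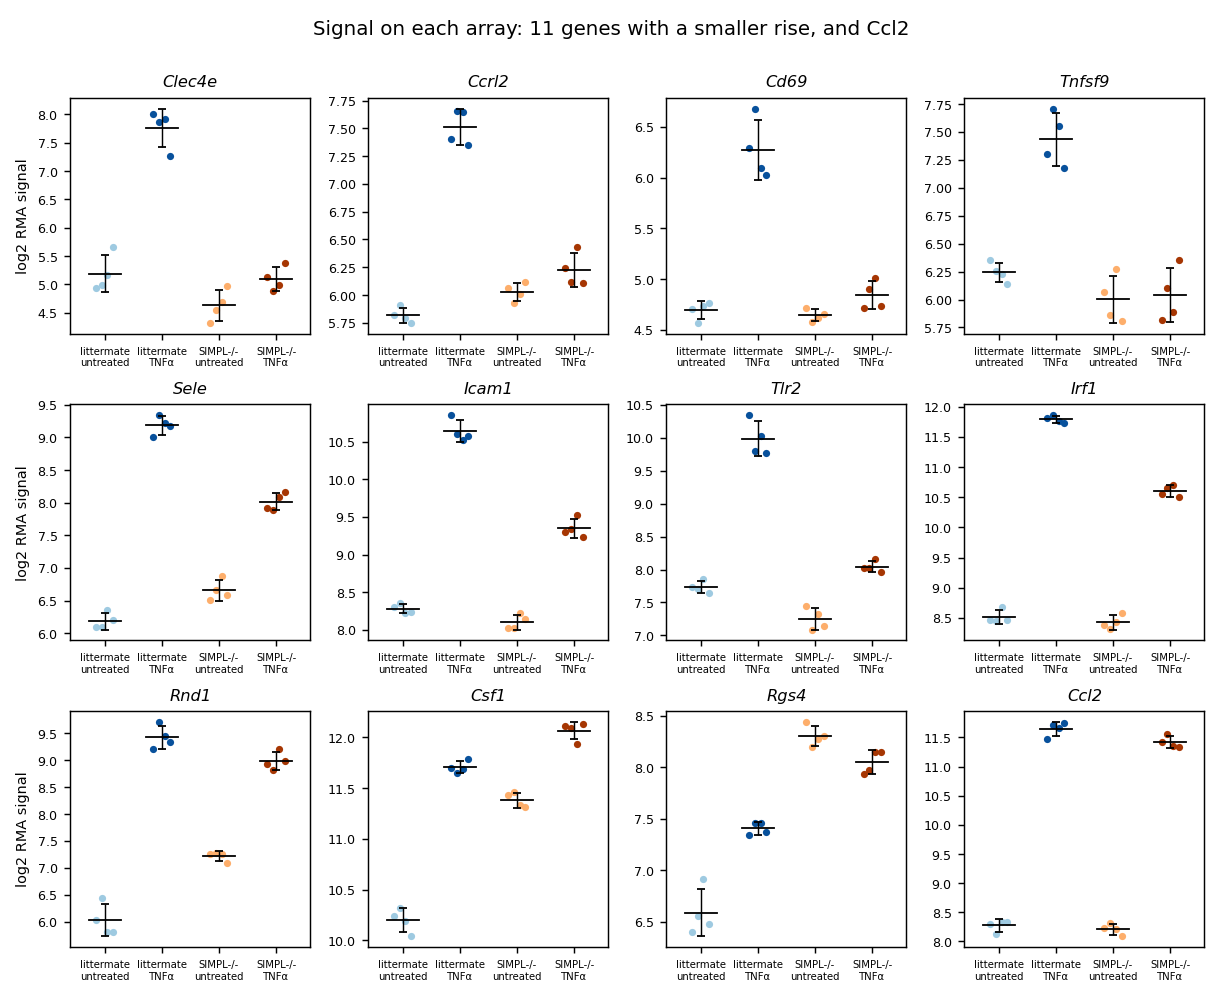
Log2 RMA signal on each array (points, 4 per group) with group mean and SD (bars) for 11 genes with a smaller rise in SIMPL-/- MEFs and, for comparison, Ccl2, whose difference of −0.17 was not called. Each vertical axis covers the range of its own gene; treated SIMPL-/- arrays of Ccrl2, Cd69 and Tnfsf9 stay near the untreated level, while Csf1 and Rgs4 stand higher in SIMPL-/- MEFs in both conditions.

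Genes that restrain or modify NF-κB signalling were called in part. Of 20 measured feedback inhibitors and ubiquitin editors, 13 rose in littermate and 9 in SIMPL-/- MEFs, 5 had a smaller rise, and the median difference of the list was −0.20. Among all genes 2.7% rose in littermate and 1.73% in SIMPL-/- MEFs, and 0.441% were called negative. Tnip3, a partner of the ubiquitin editor A20, was at 7.38, 7.41, 7.27 and 6.63 on treated littermate and 5.44, 5.74, 5.59 and 5.72 on treated SIMPL-/- arrays, and its response of 0.38 in the latter did not pass the test (adjusted p = 0.185). Tnfaip2, a TNF-induced protein of membrane protrusions that is counted in this list, rose by 2.32 and 1.02 (difference −1.30, SE 0.13, adjusted p = 4.37e-05). Its untreated level was 0.96 higher without SIMPL. Tnfaip3, which encodes A20, rose by 3.70 and 3.14 (difference −0.56, SE 0.10, adjusted p = 0.01). The differences of Bcl3, a nuclear IκB protein, and Nfkbia, which encodes IκBα, were −0.51 and −0.40 (adjusted p = 0.0295 and 0.0427), and these calls held in 6 and 2 of the 16 fits without 1 array. Nfkbie, another IκB gene, and Birc3, a ubiquitin ligase of the TNF receptor complex, rose in both genotypes and were not called, at −0.40 and −0.38 (adjusted p = 0.249 and 0.0663). Birc3 was called after quantile normalization, with dim genes left out, with trend and robust moderation, with array weights and on the linear scale. Nfkbie was called on the linear scale.

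Chemokines were split. Of 13 measured CC chemokines, Ccl20, Ccl4 and Ccl7 had a smaller rise, and of 13 CXC and CX3C chemokines Cxcl2, Cxcl10 and Cx3cl1 did, with list medians of −0.18 and −0.14. Cxcl2, which attracts neutrophils, was at 8.07, 7.82, 8.25 and 7.92 on treated littermate and at 7.17, 6.79, 7.29 and 7.05 on treated SIMPL-/- arrays, and its untreated arrays overlapped (difference −1.04, SE 0.18, adjusted p = 0.01). Cxcl1, a close relative that uses the same receptor, was at 9.01, 9.04, 9.17 and 8.90 on treated littermate and 8.91, 8.99, 8.97 and 9.08 on treated SIMPL-/- arrays. These groups of Cxcl1 overlapped, and its difference of −0.27 was not called (adjusted p = 0.381). Cxcl10, which attracts T cells, had rises of 4.03 and 3.41 (difference −0.61, SE 0.11, adjusted p = 0.0127). It was lower without SIMPL before TNFα, at 7.01 to 7.21 against 8.08 to 8.35. Ccl20, which attracts cells with the receptor Ccr6, rose by 3.98 and 2.89, and Ccl7, a monocyte chemokine, by 2.58 and 2.15. The calls of Ccl20, Ccl4, Ccl7 and Cx3cl1 held in 5, 7, 15 and 3 of the 16 fits without 1 array. Untreated, Ccl4 was lower without SIMPL, by a log2 difference of −0.52.

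The lists of growth factors and cytokines also held calls, where 0.441% of all genes were called negative and 0.0953% positive. TNFα raised 2.7% of all genes in littermate and 1.73% in SIMPL-/- MEFs. Of 17 measured growth factors 1 had a smaller and 1 a larger rise, 3 rose in littermate and 7 in SIMPL-/- MEFs, and the median difference was 0.02. Of 17 cytokines and colony-stimulating factors 1 had a smaller rise, 6 rose in each genotype, and the median difference was −0.18. Csf1, the growth factor of macrophages, was at 10.24, 10.32, 10.19 and 10.04 before and 11.70, 11.65, 11.69 and 11.79 after TNFα in littermate MEFs. Without SIMPL it was at 11.43, 11.46, 11.33 and 11.31 before and 12.11, 12.09, 11.94 and 12.13 after. Every SIMPL-/- array of Csf1 thus stood above its littermate counterparts, while the difference between the responses was −0.82 (SE 0.09, adjusted p = 7.13e-05). Fgf7, a growth factor for epithelium, showed the same order with a difference of −0.44 (SE 0.08, adjusted p = 0.0139). Btg1 and Btg2, antiproliferative proteins that promote mRNA decay, had differences of −0.55 and −0.76 (adjusted p = 0.000285 and 0.00413) and were the called genes among 9 of their list. Gadd45b, a stress protein upstream of p38, and Csrnp1, a nuclear early response protein, had −0.73 and −0.58 (adjusted p = 0.000709 and 0.00327) and were those among 29 immediate early genes, of which 15 rose in littermate and 13 in SIMPL-/- MEFs. Among 14 AP-1 and ATF factors Maff passed at −0.72 (adjusted p = 0.00927), and Junb and Atf3 did not, at −0.20 and −0.69 (adjusted p = 0.447 and 0.09). Map3k8, a kinase that links the IκB kinases to ERK, had −0.75 (SE 0.11, adjusted p = 0.00261) and was the 1 call among 21 components of TNF receptor and IRAK signalling. Its untreated level was lower without SIMPL, by a log2 difference of −0.26.

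Irf1, a transcription factor of interferon responses, was at 8.46, 8.45, 8.68 and 8.46 before and 11.81, 11.86, 11.77 and 11.73 after TNFα in littermate MEFs. Without SIMPL it was at 8.38, 8.31, 8.43 and 8.59 before and 10.55, 10.66, 10.71 and 10.50 after. The untreated groups overlapped and the treated groups did not, with a difference of −1.10 (SE 0.10, adjusted p = 1.01e-05), and a dimmer probe set of the gene had a difference of −0.06. Gbp5, a guanylate-binding protein of inflammasome assembly, was at 5.97 to 6.38 on treated littermate and 4.79 to 5.27 on treated SIMPL-/- arrays (difference −1.13, SE 0.18, adjusted p = 0.00331). Nlrp3, an inflammasome sensor, and Casp4, an inflammatory caspase, had differences of −0.71 and −0.79 (adjusted p = 0.0148 and 0.00597). Before TNFα, Casp4 was lower without SIMPL, by a log2 difference of −0.43, and the untreated arrays of Nlrp3 overlapped. Among 26 type I interferon-stimulated genes limma called 0, with 2 at an unadjusted p under 0.05, and their median difference was −0.09. Of 14 STAT and SOCS genes Socs3, an inhibitor of cytokine receptors, was called at −0.52 (adjusted p = 0.0341), a call that held in 5 of the 16 fits without 1 array, and a dimmer probe set of the gene gave −0.11.

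For Ccrl2, Cd69, Tnfsf9 and Cebpd, the rise in littermate MEFs came with a response in SIMPL-/- MEFs that did not pass the test (adjusted p = 0.265, 0.394, 0.932 and 0.588). Ccrl2, which binds the attractant chemerin, was at 7.40, 7.66, 7.65 and 7.35 on treated littermate and at 6.24, 6.12, 6.43 and 6.11 on treated SIMPL-/- arrays, against 5.75 to 6.12 on all untreated arrays. Cd69, a lectin that holds lymphocytes in tissue, was at 6.29, 6.68, 6.09 and 6.03 on treated littermate and 4.72, 4.90, 5.01 and 4.74 on treated SIMPL-/- arrays. Tnfsf9, a TNF superfamily ligand that costimulates T cells, was at 7.30, 7.71, 7.55 and 7.18 and 5.82, 6.10, 5.89 and 6.35, with a response of 0.04 in SIMPL-/- MEFs. The treated groups did not overlap for any of these genes, whose differences were −1.51, −1.38 and −1.16 (adjusted p = 1.59e-06, 6.11e-05 and 0.00261). Of 23 measured ligands and receptors of the TNF superfamily 4 were called, among them the death receptor Fas at −0.77 (adjusted p = 0.0239), which rose in both genotypes, by 1.46 and 0.70. Cebpd, an acute phase transcription factor, was at 7.65 to 7.92 and 6.94 to 7.23 with TNFα and overlapped without it, and was the 1 call among 17 acute phase and C/EBP genes. Tnfaip6, a hyaluronan-binding protein, was at 10.14 to 10.49 and 9.48 to 9.85 with TNFα and was higher without SIMPL before it, and it rose in both genotypes, by 1.52 and 0.47.

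The order of the genotypes before TNFα varied among the genes with a smaller rise. Without TNFα, 30 of the 78 stood higher in SIMPL-/- MEFs and 22 lower, with 26 not called, where 17.6% of all genes were lower and 23.3% higher. With TNFα, 63 were lower, 8 higher and 7 did not pass, where 18.4% of all genes were lower and 17.8% higher. All 4 treated SIMPL-/- arrays lay below all 4 treated littermate arrays for 60 of the 78. How many of all genes had such a separation was not counted. Both comparisons share arrays with the difference that chose these genes, and a high untreated or a low treated level in SIMPL-/- MEFs makes that difference more negative, so the shares describe the class. The 8 genes that stayed higher without SIMPL include Rgs4, Rgs16, Csf1, Fgf7, Csrnp1 and Cx3cl1. When the linear signal was tested without moderation, 18 of the 30 genes with a higher untreated level were called, compared with 25 by the same test on the log2 scale. For the 22 genes with a lower untreated level these counts were 21 and 12, and for the other 26 they were 25 and 16. The linear difference was below 0 for 77 of the 78, with Rgs16 the exception. Rnd1, Tnfaip2, Csf1, Fgf7, Btg2 and Csrnp1 were called on the log2 scale by the moderated test and not on the linear scale.

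**Figure D3:**
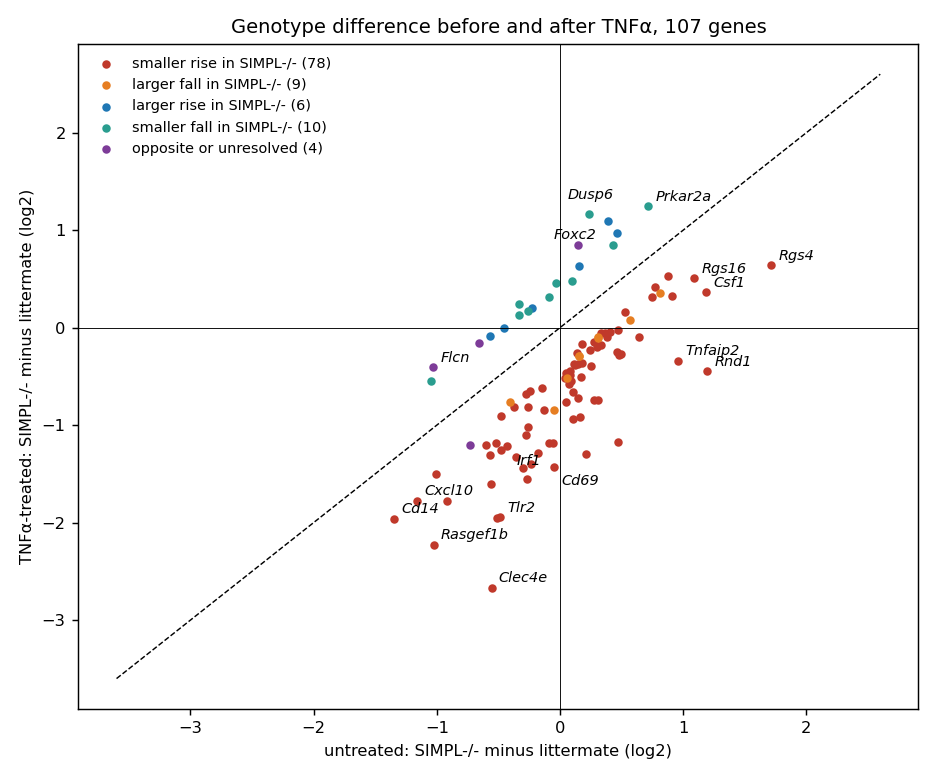
Difference between SIMPL-/- and littermate MEFs without TNFα (horizontal axis, log2) and with TNFα (vertical axis, log2) for the 107 genes with a called difference between the responses, with the dashed line at equal values. Of the 78 smaller rises, 30 were higher and 22 lower in untreated SIMPL-/- MEFs, and 63 were lower after TNFα.

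Motifs near the start sites were counted because NF-κB drives many early targets of TNFα. The NF-κB consensus, a motif of 10 letters that opens with GGG and ends with CC, was searched on both strands in the 250 bases before each RefSeq start site of GRCm38.p6, for the 15614 of 19938 genes with a sequence. It was found for 9.49% of all genes, for 20 of the 60 smaller-rise genes with a sequence (33.3%), and for 1 gene each of 8 larger falls, 5 larger rises and 7 smaller falls. Among genes raised by over 1 in littermate MEFs, it was found for 15 of 34 with a smaller rise (44.1%) and for 6 of 20 whose difference was not called (30%). The AP-1 motif TGANTCA was found for 7.12% of all genes and for 6 of the 60, and the CArG box of serum response factor for 1.45% and for 2 of the 60. A match is a run of letters and not a shown binding site. The stretches printed here are those of 5 genes with a smaller rise and, for contrast, of Cxcl1 and Nfkb2, whose differences were not called. Capitals mark the letters that match the NF-κB consensus, and each stretch is written 5′ to 3′ in the sense of its gene.
Ccrl2: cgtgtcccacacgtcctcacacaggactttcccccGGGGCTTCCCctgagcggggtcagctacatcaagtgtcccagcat
Tlr2: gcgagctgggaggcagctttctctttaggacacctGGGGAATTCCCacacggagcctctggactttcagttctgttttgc
Tnip3: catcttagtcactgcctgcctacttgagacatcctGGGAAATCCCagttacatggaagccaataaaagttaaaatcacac
Irf1: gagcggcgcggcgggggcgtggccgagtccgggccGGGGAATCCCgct
Cxcl2: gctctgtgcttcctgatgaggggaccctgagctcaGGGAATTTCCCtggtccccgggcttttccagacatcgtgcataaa
Cxcl1: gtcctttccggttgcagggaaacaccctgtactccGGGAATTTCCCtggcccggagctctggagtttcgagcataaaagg
Nfkb2: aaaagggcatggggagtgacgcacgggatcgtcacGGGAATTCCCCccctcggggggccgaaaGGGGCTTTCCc
They lie at chr9:111057530-111057609 on the minus strand (Ccrl2), chr3:83841737-83841816 on the minus strand (Tlr2), chr6:65590309-65590388 on the plus strand (Tnip3), chr11:53769966-53770013 on the plus strand (Irf1), chr5:90903767-90903846 on the plus strand (Cxcl2), chr5:90891139-90891218 on the plus strand (Cxcl1) and chr19:46304663-46304736 on the plus strand (Nfkb2). Cxcl1 and Cxcl2 hold the same matched letters, 71 and 97 bases before the start, and their differences were −0.27 and −1.04. Nfkb2, which encodes the p100 precursor of an NF-κB subunit, was named after its values were seen. It holds 4 matches counted over both strands and rose by 1.02 and 0.82 (difference −0.20, adjusted p = 0.35).

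Other strongly raised genes were not called. Of 71 genes raised by over 1 on the log2 scale in littermate MEFs, 44 had a smaller rise and 27 no called difference. A positive difference was called by limma for 0 of the 71, with 2 at an unadjusted p under 0.05, and 61 of the 71 rose in SIMPL-/- MEFs. For 23 of the 27 genes without a call the estimate was below 0. Picking genes on the littermate arrays favours a smaller estimate in the other genotype, so genes were also picked on the mean of both responses, a choice made after the data were seen. Of 51 genes with a mean response over 1, 44 had an estimate below 0 (86.3%, where 58.7% of all genes did), 31 were called negative, and the median difference was −0.63. For 11 of the 27 genes the 95% interval lay within 0.5 of 0. Ccl2, the main monocyte chemokine, was at 11.48, 11.71, 11.67 and 11.74 on treated littermate and 11.43, 11.56, 11.36 and 11.34 on treated SIMPL-/- arrays, which overlapped, with a difference of −0.17 (95% interval −0.38 to 0.05). The neutrophil chemokine Cxcl5 had 0.02 (−0.27 to 0.30), and the NF-κB subunits Rel and Relb had −0.10 (−0.37 to 0.17) and −0.17 (−0.36 to 0.02). Zc3h12a, an RNase that degrades cytokine mRNA and was named after its values were seen, had −0.05 (−0.32 to 0.23). Lif, a cytokine that acts through gp130, had a positive estimate of 0.46 (adjusted p = 0.222), with treated arrays at 7.62 to 8.21 and 8.84 to 9.17. The T cell chemokine Cxcl9 rose by 1.63 and 1.02, with an estimate of −0.61 that was not called (adjusted p = 0.122). Below that bound, the macrophage chemokine Ccl3 rose by 0.80 in littermate MEFs and had a response of −0.03 in SIMPL-/- MEFs that did not pass the test (adjusted p = 0.949). Its difference of −0.83 was not called (adjusted p = 0.0727), and its untreated level differed by −2.42 without SIMPL.

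**Figure D4:**
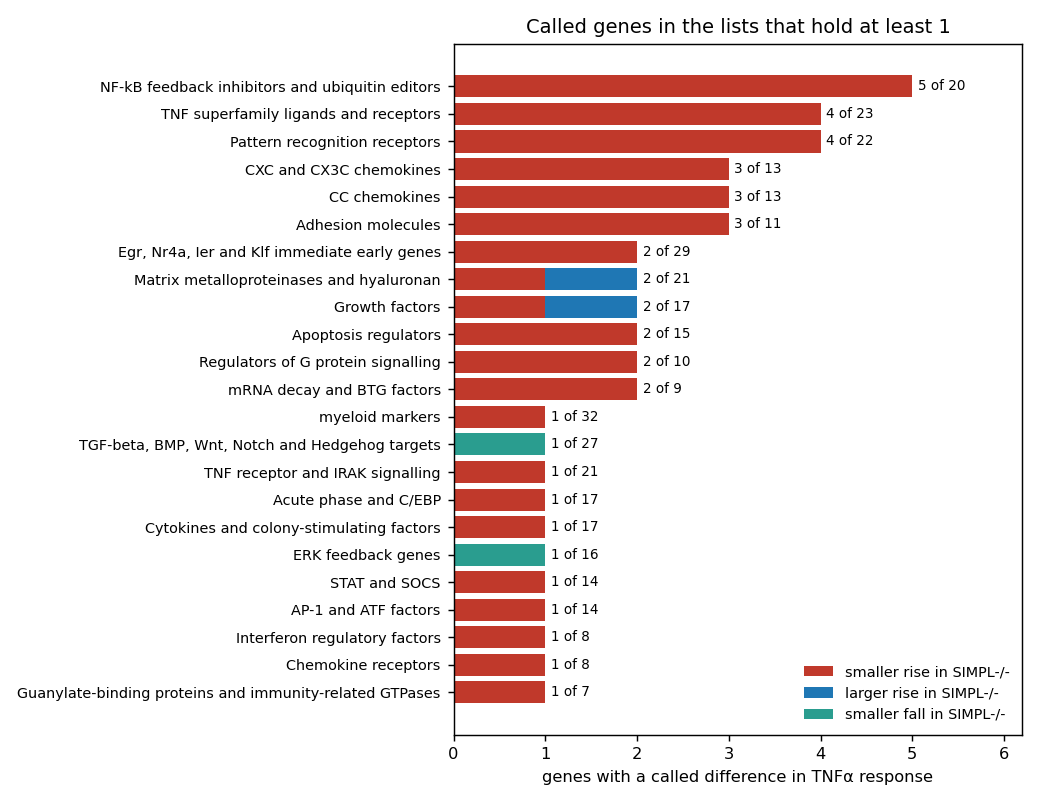
Number of genes with a called difference in TNFα response (horizontal axis) in each gene list that holds at least 1, coloured by class, with the number called and the number measured at each bar. The list named NF-κB feedback inhibitors and ubiquitin editors holds the most, 5 of 20, all smaller rises. Among the 5 is Tnfaip2, a TNF-induced protein of membrane protrusions. A positive difference is held by 4 lists, 1 gene each. Of all genes, 0.441% were called negative and 0.0953% positive, and the lists were chosen with earlier results of these data known.

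Larger falls formed the smaller part of the negative differences. Of the 9 genes, Snai2 fell in both genotypes. The other 8 had a littermate response that did not pass the test, with estimates above 0, from 0.03 for Arap1 to 0.20 for Il4ra. For Il4ra, Ptger4, B9d1 and Pde1b every treated littermate array lay above every untreated one. Snai2, the transcription factor Slug that represses E-cadherin, was at 9.99, 9.91, 9.86 and 9.87 before and 9.32, 9.51, 9.46 and 9.39 after TNFα in littermate MEFs. Without SIMPL the arrays went from 10.27, 10.24, 10.17 and 10.19 to 9.30, 9.28, 9.23 and 9.45. The untreated groups of Snai2 were separate and the treated groups overlapped (difference −0.41, SE 0.08, adjusted p = 0.0268). Adm, which encodes the vasodilator adrenomedullin, had the largest difference of the class, −0.80 (SE 0.12, adjusted p = 0.0014). It was at 9.04, 9.29, 9.20 and 9.15 on treated littermate and 8.28, 8.16, 8.47 and 8.39 on treated SIMPL-/- arrays, and all untreated arrays lay at 8.77 to 9.09. Ptger4, a receptor of prostaglandin E2, and Il4ra, a cytokine receptor chain, had responses of −0.28 and −0.29 in SIMPL-/- MEFs, from untreated levels that were 0.81 and 0.57 higher there. Their differences were −0.45 and −0.49 (adjusted p = 0.0139 and 0.0249). Pde1b, a phosphodiesterase driven by calmodulin, had −0.44 (adjusted p = 0.00473), and Rsph9 and B9d1, proteins of cilia, had −0.57 and −0.44 (adjusted p = 0.00822 and 0.0251). Arap1, a GTPase-activating protein, had −0.36 and Fam151b −0.40 (adjusted p = 0.0427 and 0.0427). Arap1 was named after its values were seen. The calls of Adm, Rsph9, Ptger4 and Pde1b held without any 1 array, those of the other 5 in 3 to 7 of the 16 fits. The number of larger falls was 4 without treated SIMPL-/- array 4, 5 without any 1 of untreated littermate array 4, treated littermate array 2, untreated SIMPL-/- array 1, untreated SIMPL-/- array 4, treated SIMPL-/- array 1 and treated SIMPL-/- array 2 and 37 without treated SIMPL-/- array 3.

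Among the positive differences, smaller falls were led by Dusp6, the phosphatase that inactivates ERK and is itself raised by ERK signalling. In littermate MEFs it fell from 9.32, 9.36, 9.51 and 9.44 to 8.17, 8.46, 8.35 and 8.45. In SIMPL-/- MEFs it was at 9.67, 9.59, 9.64 and 9.67 before and 9.49, 9.51, 9.38 and 9.71 after TNFα, above every treated littermate array. The log2 responses were −1.05 and −0.12, a difference of 0.93 (SE 0.11, adjusted p = 7.67e-05) that was called without any 1 array. Dusp6 was the 1 call among 16 ERK feedback genes, whose median difference was 0.01, and Spry2, another inhibitor of ERK signalling, had 0.34 without a call (adjusted p = 0.15). Of 46 genes lowered by over 0.5 in littermate MEFs, Dusp6, Kcne4 and Zfp93 had a called positive difference, and of the other 43 the estimate was above 0 for 40. A negative difference was called by limma for 0 of the 46, with 1 at an unadjusted p under 0.05. Of 21 genes with a mean of both responses below −0.5, 14 had an estimate above 0 (66.7%, where 41.3% of all genes did), 1 was called positive and 1 negative, and the median difference was 0.09.

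Kcne4, a subunit of potassium channels, fell from 8.06, 7.99, 8.30 and 8.07 to 7.49, 7.61, 7.65 and 7.64 in littermate MEFs and lay at 6.94 to 7.2 on all SIMPL-/- arrays, below the littermate arrays in both conditions (difference 0.50, SE 0.10, adjusted p = 0.0221). Hes1, a repressor downstream of Notch, was at 9.55, 9.41, 9.46 and 9.49 before and 9.14, 9.32, 9.11 and 9.24 after TNFα in littermate MEFs and above them, at 9.83 to 10.22, on all SIMPL-/- arrays. Its difference of 0.42 (SE 0.09, adjusted p = 0.047) was the 1 call among 27 targets of TGF-β, BMP, Wnt, Notch and Hedgehog signalling. Sox9, a cartilage transcription factor, was at 9.08 to 9.20 before and 8.74 to 8.87 after TNFα in littermate MEFs and lay at 9.01 to 9.20 on all SIMPL-/- arrays (difference 0.40, SE 0.08, adjusted p = 0.0296). The response in SIMPL-/- MEFs did not pass the test for any of the 10 smaller falls, and its estimate was below 0 for 3 of them, Dusp6, Kcne4 and Zfp93, and above 0 for the others. Prkar2a, a regulatory subunit of protein kinase A, had responses of −0.30 in littermate and 0.23 in SIMPL-/- MEFs, with all treated SIMPL-/- arrays above the untreated ones (difference 0.53, adjusted p = 0.0247). Usp1, a deubiquitinase of DNA repair, had a difference of 0.49 (adjusted p = 0.0317). The zinc finger genes Zfp566, Zfp93 and Mynn had 0.58, 0.46 and 0.43 (adjusted p = 0.0191, 0.0427 and 0.0256), and the nucleolar gene Rrp1b had 0.38 (adjusted p = 0.0468). Sox9 and Rrp1b were named after their values were seen. Apart from Dusp6, the calls of these genes held in 3 to 13 of the 16 fits without 1 array. The number of smaller falls was 2 without treated SIMPL-/- array 2, 3 without untreated littermate array 1, 4 without any 1 of untreated littermate array 4, treated littermate array 4 and untreated SIMPL-/- array 4, 5 without any 1 of untreated littermate array 2, treated littermate array 1, untreated SIMPL-/- array 1 and untreated SIMPL-/- array 3, 6 without untreated littermate array 3 or treated SIMPL-/- array 4 and 19 without treated SIMPL-/- array 3.

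**Figure D5:**
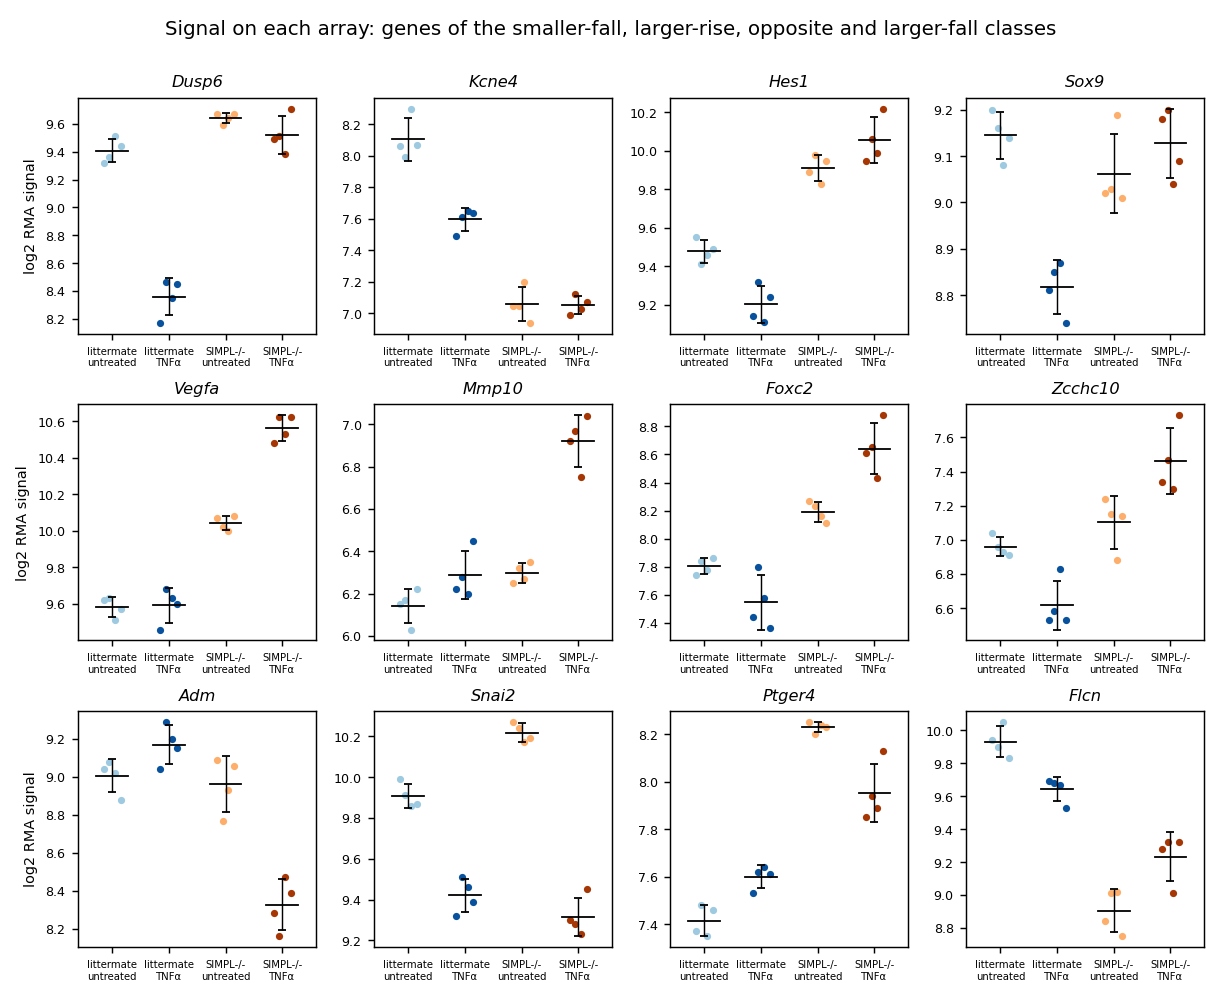
Log2 RMA signal on each array (points, 4 per group) with group mean and SD (bars) for smaller falls (Dusp6, Kcne4, Hes1, Sox9), larger rises (Vegfa, Mmp10, Foxc2), larger falls (Adm, Snai2, Ptger4) and genes with opposite responses (Zcchc10, Flcn), each on a vertical axis of its own range. Dusp6 fell with TNFα in littermate MEFs to 8.17 to 8.46 and stayed at 9.38 to 9.71 in SIMPL-/- MEFs.

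The 6 larger rises were of genes whose littermate response did not pass the test, with adjusted p-values from 0.126 to 0.96 in limma. Vegfa, the angiogenic growth factor, was at 9.62, 9.63, 9.51 and 9.57 before and 9.46, 9.68, 9.63 and 9.60 after TNFα in littermate MEFs, which overlapped. In SIMPL-/- MEFs it rose from 10.07, 10.02, 10.00 and 10.08 to 10.48, 10.62, 10.53 and 10.62 (difference 0.51, SE 0.08, adjusted p = 0.00353). Vegfa was thus higher without SIMPL in both conditions, by 0.46 before and 0.97 after TNFα. Mmp10, a matrix metalloproteinase, went from 6.25, 6.32, 6.27 and 6.35 to 6.92, 6.97, 6.75 and 7.04 in SIMPL-/- MEFs and was at 6.03 to 6.45 on all littermate arrays (difference 0.48, SE 0.10, adjusted p = 0.0268). Foxc2, a forkhead factor of mesenchyme and lymphatic vessels, rose from 8.27, 8.23, 8.16 and 8.11 to 8.61, 8.65, 8.43 and 8.88, where all littermate arrays lay at 7.36 to 7.86 (difference 0.71, SE 0.13, adjusted p = 0.0117). Sox11, a transcription factor of embryonic tissue, and Slco4a1, an organic anion transporter, had untreated genotype differences of −0.23 and −0.46 and differences between the responses of 0.43 and 0.45 (adjusted p = 0.0419 and 0.0381). Olfr1537, an olfactory receptor gene, had 0.48 (adjusted p = 0.0341) at a low signal of 3.78 to 4.55. The calls of Vegfa and Foxc2 held without any 1 array, those of the other 4 in 3 to 5 of the 16 fits. The number of larger rises was 2 without any 1 of treated littermate array 2, treated SIMPL-/- array 2 and treated SIMPL-/- array 4, 3 without any 1 of untreated littermate array 2, untreated littermate array 4 and untreated SIMPL-/- array 1 and 27 without treated SIMPL-/- array 3.

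Opposite responses were called for Flcn and Zcchc10. Flcn, which encodes folliculin, a regulator of mTORC1 at the lysosome, fell from 9.94, 9.90, 10.05 and 9.83 to 9.69, 9.68, 9.67 and 9.53 in littermate MEFs. Without SIMPL the arrays went from 8.84, 9.01, 9.02 and 8.75 to 9.28, 9.32, 9.01 and 9.32, still below every littermate array (difference 0.62, SE 0.11, adjusted p = 0.0113). Zcchc10, a zinc knuckle protein, had responses of −0.34 and 0.36 (difference 0.70, SE 0.13, adjusted p = 0.0164), with untreated groups that overlapped and treated groups that did not. Both calls held without any 1 array. Tspan11, a tetraspanin, and Stam, an adaptor of endosomal sorting, had differences of −0.47 and 0.50 (adjusted p = 0.0306 and 0.0431) that held in 5 and 4 of the 16 fits.

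Several gene groups held 0 calls in limma in either direction. Of 33 measured subunits of Mediator, the complex that links transcription factors to RNA polymerase II, 4 had an unadjusted p under 0.05, all positive, and the median difference was 0.03. Of the 6 Rel family members and IκB kinases, 2 had an unadjusted p under 0.05, both negative, with a median of −0.14. The other lists without a call held 15 collagens, 19 cell cycle genes, 17 antioxidant and stress genes, 13 complement genes, 9 p53 targets, 6 phosphatases of JNK and p38, 11 housekeeping genes and 46 markers of fibroblasts, endothelium, lymphoid and mast cells, epithelium and neural cells. Over all 198 genes of the lists without a call, interferon-stimulated genes included, 18 had a negative and 13 a positive difference at an unadjusted p under 0.05. Among all 19938 genes these counts were 1646 and 931. Since 107 of all 19938 genes were called, 0 calls in lists this short do not set their members apart.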

How the data were processed

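Total RNA of 16 cultures was hybridised to Affymetrix Mouse Gene 1.0 ST arrays. The values used are the log2 signals per probe set that the authors deposited, made with RMA in Partek per the submitters' processing notes; the methods of the study also name Affymetrix Microarray Suite. RMA brings arrays to a common scale, so that only changes relative to the other genes can be seen. The medians of the deposited arrays ranged from 6.667 to 6.764. Of 28853 probe sets, 21789 have 1 gene symbol in the platform annotation, 1621 have several and 5443 have none listed; the brightest probe set was kept for each of 19938 genes, 999 of which have several. All value columns were used. Arrays were grouped by their labels. The number of arrays limits the precision.

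A linear model with 4 group means was fitted over all genes with limma 3.58.1 in R 4.3.3 (lmFit and eBayes, 12 residual and 6.188 prior degrees of freedom), with Benjamini-Hochberg adjustment across the 19938 genes and calls at 0.05. All adjusted p-values in the text are limma's unless another test is named, and all tests are two-sided. The code was tested on simulated data. The genes named are Irak1bp1, the first 12 smaller rises and 8 of each other class by size of the difference, up to 3 called members of each of 38 gene lists, and up to 2 members that rose or fell in littermate MEFs without a called difference; of these some are not reported here, and Bcl3, Nfkbia, Nfkb2, Zc3h12a, Arap1, Sox9 and Rrp1b were added after their values were seen, and Tagap as a neighbour of the threshold. The members and lists were chosen with earlier results of these data known. The lists hold 569 measured genes, and 47 listed genes were not measured. Promoter sequences are from RefSeq (GRCm38.p6). Alternatives tried were other scalings, filters, tests and thresholds and leaving out each array.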

Additional observations from a re-analysis of the deposited data

Results flagged for a closer look

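Of 352 groups of 4 arrays, those of 88 genes, 28 had 1 array that stood apart from the other 3, where chance gives about 1 in 20. The gap was judged against the range of the same group, so it can be small on the log2 scale. For Rel the other arrays were at 7.89 to 7.9, and for Atf3 at 7.67 to 7.71. The level of the array that stood apart is given for each. On treated littermate array 1 these were Irak1bp1 at 7.65, Vcam1 at 11.7, Fgf7 at 10.4, Cxcl5 at 9.71, Spry2 at 8.99 and Zfp566 at 5.87. On treated SIMPL-/- array 3 these were Gbp5 at 5.27, Cebpd at 7.23, Il4ra at 10.5, Arap1 at 8.58 and Flcn at 9.01. On untreated SIMPL-/- array 1 these were Gadd45b at 10.3, Zc3h12a at 7.36 and Rsph9 at 6.45. On untreated SIMPL-/- array 3 these were Cxcl5 at 7.76, Sox9 at 9.19 and Slco4a1 at 6.53. On untreated SIMPL-/- array 4 these were Rnd1 at 7.09 and Ccl20 at 5.93. On untreated SIMPL-/- array 2 these were Cxcl1 at 7.53 and Atf3 at 7.17. On untreated littermate array 2 these were Rel at 7.86 and Zfp93 at 7.87. On untreated littermate array 3 this was Irf1 at 8.68. On treated SIMPL-/- array 1 this was Maff at 7.75. On treated littermate array 2 this was Zc3h12a at 7.69. On treated littermate array 3 this was Zcchc10 at 6.83. On treated littermate array 4 this was Flcn at 9.53. The TNFα response differed between genotypes by the test of the difference itself for 78 genes with a smaller rise, 9 with a larger fall, 6 with a larger rise, 10 with a smaller fall and 2 with opposite responses, and for 1 negative and 1 positive gene for which neither response passed.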

How the results depend on the processing

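The direction of every called difference was kept under all alternatives on the log2 scale. On the linear scale Rgs16 had a gain that was larger in SIMPL-/- MEFs by 77.95 units of signal (adjusted p = 0.489), and the cause was not tested. Of the 107 calls, 61 held without any 1 array and 39 also under every other scaling, filter and test at the same threshold, among them 33 of the 78 smaller rises; genes that the filter on dim signals left out count as lost. Without 1 array, the number of genes called was 66 to 184, with 61 to 130 negative and 5 to 54 positive, and the classes held 56 to 85 smaller rises, 4 to 37 larger falls, 2 to 27 larger rises and 2 to 19 smaller falls. The highest of each of these counts was that without array 3 of the treated SIMPL-/- group.

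With each array centred on its median, 86 genes were called and larger falls numbered 4. Quantile normalization gave 39 positive differences, 15 larger rises and 18 smaller falls. Leaving out dim genes gave 211 calls (141 negative, 70 positive) with 25 larger falls, 27 larger rises and 31 smaller falls. Among these calls were Atf3, Birc3, Ccl3 and Rgs2, which the main fit did not call. Trend and robust moderation gave 253 calls (155 and 98) with 32, 38 and 44. Array weights gave 182 calls with 50 positive ones, 20 larger falls, 23 larger rises and 18 smaller falls. The unmoderated test gave 73 calls with 7 positive ones, 2 larger rises and 4 smaller falls, and on the linear scale there were 15 larger rises. At an adjusted p under 0.01, 43 genes were called (41 and 2), with 38 smaller rises, 3 larger falls, 1 larger rise and 1 smaller fall. With a difference over the log2 of 1.5 required, 50 were called (46 and 4), with 45, 1, 1 and 1. With responses called only at a fold of 1.5 and p of 0.001, larger falls numbered 2, larger rises 1 and smaller falls 1. Smaller rises stayed between 58 and 112 under every other alternative with all arrays. No paired analysis was possible because the labels give no number that ties an untreated to a treated array.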

Other observations

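Zinc finger genes named Zfp and a number were counted after the values of Zfp566 and Zfp93 were seen. Of 347 such genes, TNFα lowered 91 and raised 10 in littermate MEFs, and lowered 20 and raised 5 in SIMPL-/- MEFs. Among all genes it lowered 2.45% and raised 2.7% in littermate MEFs, and lowered 1.39% and raised 1.73% in SIMPL-/- MEFs. The estimate of the difference between the responses was above 0 for 234 of them (67.4%, where 41.3% of all genes were), and the median was 0.08. Of these, Zfp566 and Zfp93 were called. Many of these genes have related sequences, and no test was run on the group.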
